A study of Mus musculus with 8 samples.

Results

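The miRNAs described here are those processed from the hairpins of the imprinted genes Mest, Igf2 and H19. The list held 6 names: mmu-miR-335-5p and mmu-miR-335-3p from Mest, mmu-miR-483-5p and mmu-miR-483-3p from Igf2, and mmu-miR-675-5p and mmu-miR-675-3p from H19. The species prefix is left out below. Of these, 4 are among the 697 mature miRNAs of the count tables, and the 2 arms of miR-675 are not among those names and were not analysed here. The members were thus set by name and by the names present in the tables, with no cut-off on a value, so their presence is not a result. The list was drawn up with results of these libraries known. The fold changes and adjusted p-values below are therefore the members' rows in a fit over all tested miRNAs, given as a description.

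Small RNAs were sequenced from cardiomyocytes of 4 male mice with a sham operation and 4 male mice with transverse aortic constriction (TAC), a surgical narrowing of the aorta that overloads the left ventricle. Surgery was at 2 months of age, and hearts are read here as taken 14 weeks later. The methods give 14 weeks after surgery for echocardiography but call the mice 14 weeks old at cell isolation, so the age at harvest is unclear. Each library comes from 1 mouse. The strain is not given in the sources used here. Cells were released by Langendorff perfusion with no sort stated, so RNA of other heart cells can be present. The paper reports very low mRNA levels of fibroblast markers in its isolated cells. From this it concludes that much of the nonmuscle fraction had been removed.

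Imprinted genes are expressed from the allele of a single parent. Mest and Igf2 are active on the paternal allele and H19 on the maternal allele, and all 3 are strongly expressed in fetal tissues and decline after birth in most of them. Igf2 encodes a fetal growth factor, Mest an enzyme-like protein of the mesoderm, and H19 a noncoding RNA. A miRNA hairpin is cut by Drosha and Dicer into a duplex of a 5p and a 3p arm, either of which can be loaded into Argonaute and pair with mRNAs through its seed.

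The mature sequences of the measured arms, which show that the 4 members share no seed, are printed with the seed (bases 2 to 8) in capitals. They were taken from RefSeq on GRCm38.p6, where all 4 names matched.
mmu-miR-335-5p: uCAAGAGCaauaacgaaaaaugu
mmu-miR-335-3p: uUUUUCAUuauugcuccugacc
mmu-miR-483-5p: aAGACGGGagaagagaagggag
mmu-miR-483-3p: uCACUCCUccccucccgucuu

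No other mature mouse miRNA in the RefSeq table carried any of these 4 seeds, so no miRNA with a sequence there could be grouped with an arm by seed. Of the 697 measured miRNAs 593 had a RefSeq sequence, and the seeds of the rest were not compared. The hairpin of miR-335 is printed with both arms in capitals, since the balance of these arms is compared between the groups.
Mir335: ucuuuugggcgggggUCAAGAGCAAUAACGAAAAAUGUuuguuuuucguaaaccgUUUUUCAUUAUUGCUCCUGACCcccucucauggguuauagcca

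Mir335 lies on chromosome 6 of GRCm38 from 30741299 to 30741396 on the plus strand, in an intron of Mest. Mir483 lies on chromosome 7 from 142654924 to 142654996 on the minus strand, in an intron of Igf2 and of the overlapping gene model Gm49394. Mir675, not measured, lies on chromosome 7 from 142577064 to 142577147 on the minus strand, in an exon of H19. The arms also differ in composition. A or U made up 69.6% of miR-335-5p and 63.6% of miR-335-3p, against 45.5% of miR-483-5p and 38.1% of miR-483-3p. The median of the 593 measured miRNAs with a RefSeq sequence was 50.0%.

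The libraries hold 4005668 to 5392576 miRNA tags in sham and 5507169 to 7798943 in TAC. The 5 cardiomyocyte marker miRNAs (miR-1a-3p, miR-133a-3p, miR-208a-3p, miR-208b-3p and miR-499-5p) were detected in every library. They summed to 160712 to 198133 CPM by library total (counts per 1000000 miRNA tags) in sham and 194455 to 245941 CPM in TAC, where the mean was 1.25 times as high. By library total the markers did not move together. By mean, miR-1a-3p rose from 108665 CPM in sham to 158119 CPM in TAC and miR-208b-3p from 41.3 to 72.6 CPM. miR-499-5p was nearly level, at 719 and 733 CPM, while miR-133a-3p fell from 67356 to 62669 CPM and miR-208a-3p from 519 to 427 CPM. With the scaling to reference miRNAs described below, all 5 had positive log2 fold changes of TAC over sham. These were 1.44 for miR-1a-3p, 1.71 for miR-208b-3p, 0.93 for miR-499-5p, 0.79 for miR-133a-3p and 0.62 for miR-208a-3p. The median of all tested miRNAs was 0.61 on that scale. Endothelial markers (both arms of miR-126a) were also abundant, at 49248 to 72051 CPM in sham and 29274 to 34557 CPM in TAC. Sham mouse 1 stood apart from the other sham mice as a whole library: the chi-square per degree of freedom between count profiles was 854 to 1062 against each of them and 280 to 367 among them. In TAC, mouse 4 differed from mice 1 and 2 by 1094 and 860, and from mouse 3 by 314. In such bulk RNA, fewer cells of a type and less RNA per cell cannot be told apart.

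Tags of the Mest hairpin were at a moderate level in these preparations of adult cardiomyocytes, and those of the Igf2 hairpin were close to the limit of detection. Which cells of the preparations these tags came from was not tested. miR-335-5p ranked 98 and miR-335-3p ranked 122 by total count among the 697 miRNAs, with 11104 and 5182 tags in all 8 libraries together. miR-483-3p ranked 435 with 56 tags and miR-483-5p ranked 523 with 20. Both arms of miR-335 passed the minimum of a mean above 100 counts set for testing, and neither arm of miR-483 did. Every mature form here is 21 to 23 bases long, so tag counts of different arms can be set side by side without a length correction, although ligation can favour some ends over others.

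miR-335-5p, the more abundant arm, had 937, 1900, 2113 and 1678 tags in sham mice 1 to 4 and 1240, 1185, 951 and 1100 in TAC mice 1 to 4. By library total its levels were 202, 352, 430.6 and 419 CPM in sham and 225, 152, 150 and 152 CPM in TAC. Sham mouse 1 was far below the other sham mice and TAC mouse 1 was above the other TAC mice, and these libraries alone made the groups overlap. Mean levels were 351 ± 105 CPM (SD, n = 4) in sham and 170 ± 36.9 CPM (SD, n = 4) in TAC. Without sham mouse 1 the sham mean was 401 ± 42.2 CPM (SD, n = 3) and the groups did not overlap. This mouse was left out after its value was seen. How many of the tested miRNAs separate without it was not counted, so this non-overlap has no background to be read against. The scatter within sham was far beyond counting error, since the 95% Poisson interval of sham mouse 1 ran from 190 to 216 CPM and that of sham mouse 2 from 336.7 to 368.5 CPM.

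miR-335-3p, the arm from the other side of the stem, had 566, 831, 693 and 498 tags in sham mice 1 to 4 and 697, 733, 534 and 630 in TAC mice 1 to 4. Its levels were 122, 154.1, 141 and 124 CPM in sham and 126.6, 94.0, 84.2 and 87.2 CPM in TAC. TAC mouse 1 lay among the sham mice and the other TAC mice lay below all of them. The TAC libraries all lay below the sham libraries in 27.4% of the tested miRNAs on this scale, and in neither arm of miR-335. Mean levels were 135 ± 15.0 CPM (SD, n = 4) in sham and 98.0 ± 19.5 CPM (SD, n = 4) in TAC.

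**Figure D1:**
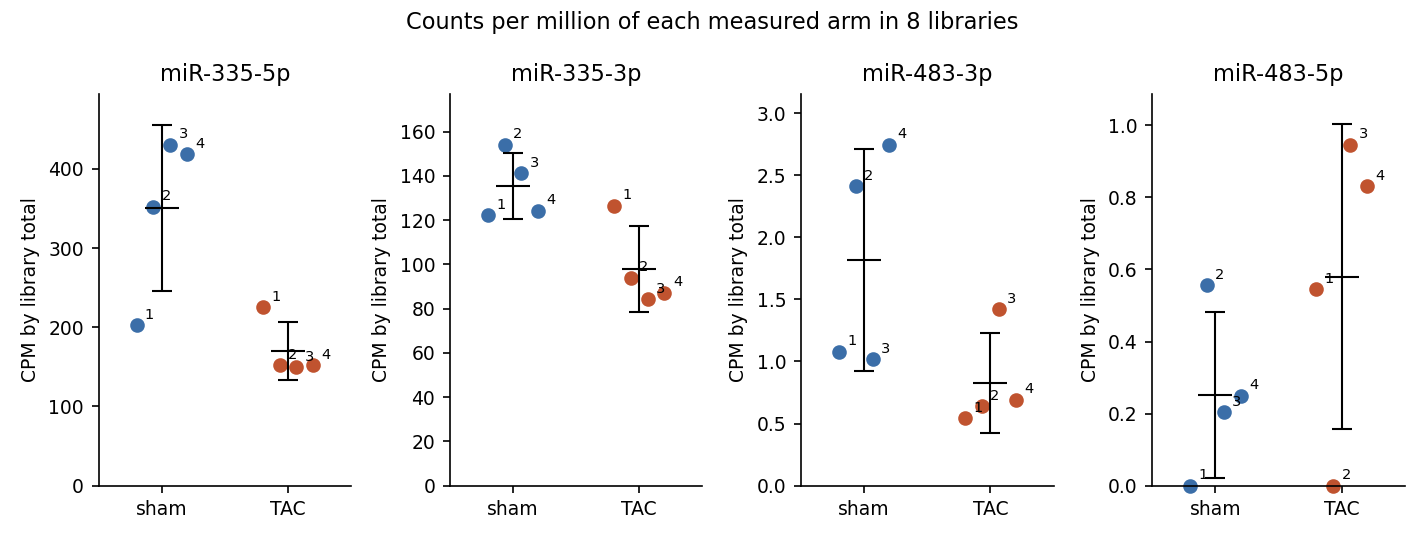
CPM by library total (vertical axes, each from 0) of the 4 measured arms in sham (blue) and TAC (orange) libraries. Numbers are mice and black bars are means ± SD (n = 4 each). miR-335-5p of sham mouse 1 and TAC mouse 1 lie at 202 and 225 CPM, between the other sham and the other TAC libraries.

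How these levels compare between sham and TAC depended on the scale. The study used a pair of miRNAs, miR-19b-3p and miR-126a-3p, as references. Its methods describe them as unaltered and as verified by QPCR. Its methods do not say how the references were applied. Here all TAC values were divided by 1 factor, 0.537, the ratio of TAC to sham for both references combined as a geometric mean. The result, called reference-scaled CPM, lies 0.90 higher in log2 for TAC than CPM by library total. On this scale miR-335-5p averaged 351 ± 105 (SD, n = 4) in sham against 316 ± 68.7 (SD, n = 4) in TAC, and the groups overlapped. Its log2 fold change of TAC over sham was -0.15 ± 0.25 (SE), with an edgeR adjusted p of 0.603, and -0.22 with 0.280 without sham mouse 1. miR-335-3p averaged 135 ± 15.0 (SD, n = 4) in sham against 183 ± 36.3 (SD, n = 4) in TAC. Every TAC library then lay above every sham library, as it did in 54.7% of all tested miRNAs. The log2 fold change was 0.43 ± 0.17 (SE), a fold change of 1.35, with an edgeR adjusted p of 0.0479. This SE and p take the factor as fixed and leave out the spread of the references between mice. With 1 reference factor per library the log2 fold change was 0.41 ± 0.22 (SE), with an edgeR adjusted p of 0.130. Of all tested miRNAs, 63.7% were higher at an adjusted p below 0.05.

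Calls needed a fold change above 1.7 besides an adjusted p below 0.05, and 0 of the 2 arms was called by edgeR. Of all 223 tested miRNAs, 36.8% were called higher and 0.897% lower, with a median log2 fold change of 0.61. DESeq2 with the same scaling also called 0, and 1 arm, miR-335-3p, had an unadjusted p below 0.05 with either tool. Ordered by log2 fold change, miR-335-5p was number 13 and miR-335-3p number 70 from the lowest of the 223. The reference miRNAs themselves stood close to miR-335-5p in this order, with miR-19b-3p at 15 and miR-126a-3p at 29. The adjusted p of miR-335-3p remained below 0.05 without sham mouse 1 (0.0317) or without TAC mouse 4 (0.0252). It rose above 0.05 with any other library left out: to 0.0885 without sham mouse 2, 0.147 without sham mouse 3, 0.0885 without sham mouse 4, 0.119 without TAC mouse 1, 0.102 without TAC mouse 2 and 0.0546 without TAC mouse 3, all adjusted p-values from edgeR.

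By library totals both arms were lower in TAC. miR-335-5p had a log2 fold change of -1.05 ± 0.25 (SE), or a level 2.07-fold higher in sham, with an edgeR adjusted p of 0.0154. It was called lower, as were 10.3% of all tested miRNAs, while 0.448% were called higher. miR-335-3p had -0.47 ± 0.17 (SE) with an adjusted p of 0.0706 and was not called. With edgeR's TMM normalization, which assumes that most miRNAs do not change, the values were -0.84 ± 0.26 (SE, adjusted p = 0.0529) for miR-335-5p and -0.25 ± 0.17 (SE, adjusted p = 0.340) for miR-335-3p. Neither was called, against 1.35% of tested miRNAs called higher and 4.48% called lower. The TMM call of miR-335-5p changed when sham mouse 1 was left out, an alternative added after the data were seen. The log2 fold change was then -1.002 with an edgeR adjusted p of 0.00610, and the arm was called lower, as were 3.14% of the miRNAs tested. By library totals without that mouse it was -1.24 with an edgeR adjusted p of 0.00225, again called lower, as were 9.87%. That mouse had the lowest sham level of this arm, and no other library was left out on these scales. The direction of miR-335-3p thus turned with the scaling. miR-335-5p had a negative log2 fold change on all 3 scales, but with the reference scaling it lay within 1 SE of 0. The reference scaling adds the same 0.90 to every log2 fold change by library totals, so both scales give nearly the same order by construction. miR-335-5p was number 13 from the lowest on both, and number 12 with TMM.

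**Figure D2:**
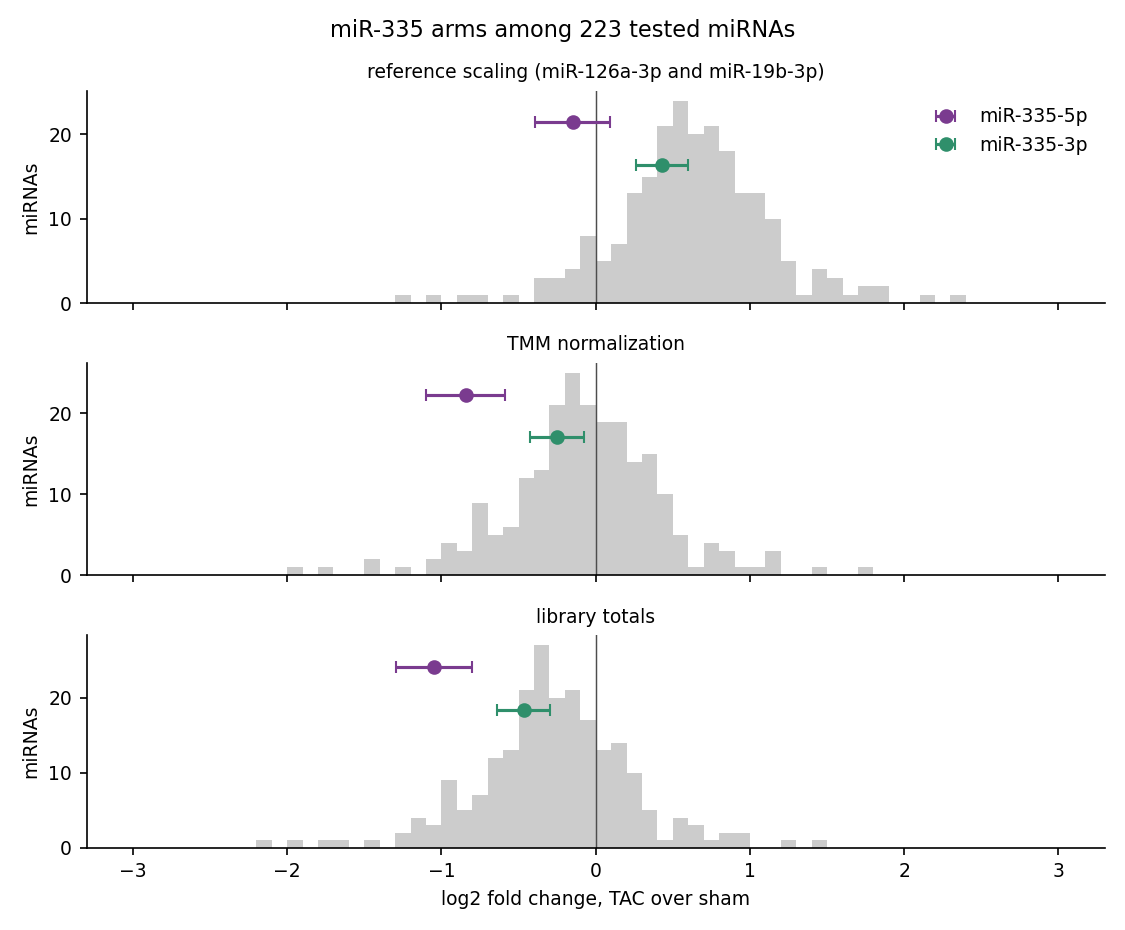
Histograms of log2 fold change (TAC over sham, horizontal axis) of the 223 tested miRNAs on 3 scales, with the number of miRNAs on the vertical axis. Points with bars are the miR-335 arms ± standard error, placed at arbitrary heights. miR-335-5p lies at -0.15, -0.84 and -1.05 from top to bottom, to the left of miR-335-3p at 0.43, -0.25 and -0.47.

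The balance of the miR-335 arms needs no scaling, since both are counted in the same library. The 5p arm made up 62.3%, 69.6%, 75.3% and 77.1% of the miR-335 tags in sham mice 1 to 4 and 64.0%, 61.8%, 64.0% and 63.6% in TAC mice 1 to 4. All TAC libraries and sham mouse 1 lay between 61.8% and 64.0%, and the other sham libraries lay higher. The exact 95% binomial intervals, which cover counting error only, ran from 59.6% to 66.5% over the former and from 67.8% to 78.9% over the latter. In log2 of the ratio of 5p to 3p tags, the sham mean was 1.32 ± 0.46 (SD, n = 4) and the TAC mean 0.79 ± 0.066 (SD, n = 4), corresponding to 2.50 and 1.73 tags of 5p per tag of 3p. The difference of -0.53 gave p = 0.114 (exact permutation test, two-sided, where 4 against 4 libraries allow no p below 0.0286). Without sham mouse 1 it was -0.73 (exact permutation test, p = 0.0571, the smallest that 3 against 4 libraries allow). This mouse was singled out after its value was seen. It was the only sham library among the TAC values, so the groups without it could not overlap. How many other hairpins separate without this mouse was not counted. With any other library left out, the exact permutation test gave p-values of 0.171 to 0.229.

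Both arms were tested for 43 hairpins, paired by name. Their TAC-minus-sham differences in log2 arm ratio ran from -0.94 to 0.43 with a median of -0.11, and miR-335 was number 7 from the lowest. Its SD within TAC, 0.066, was the smallest of the 43, where the median was 0.25, and its SD within sham, 0.46, was number 6 from the largest. The groups did not overlap, with TAC below, for 9.3% of these hairpins, and miR-335 was not among them.

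**Figure D3:**
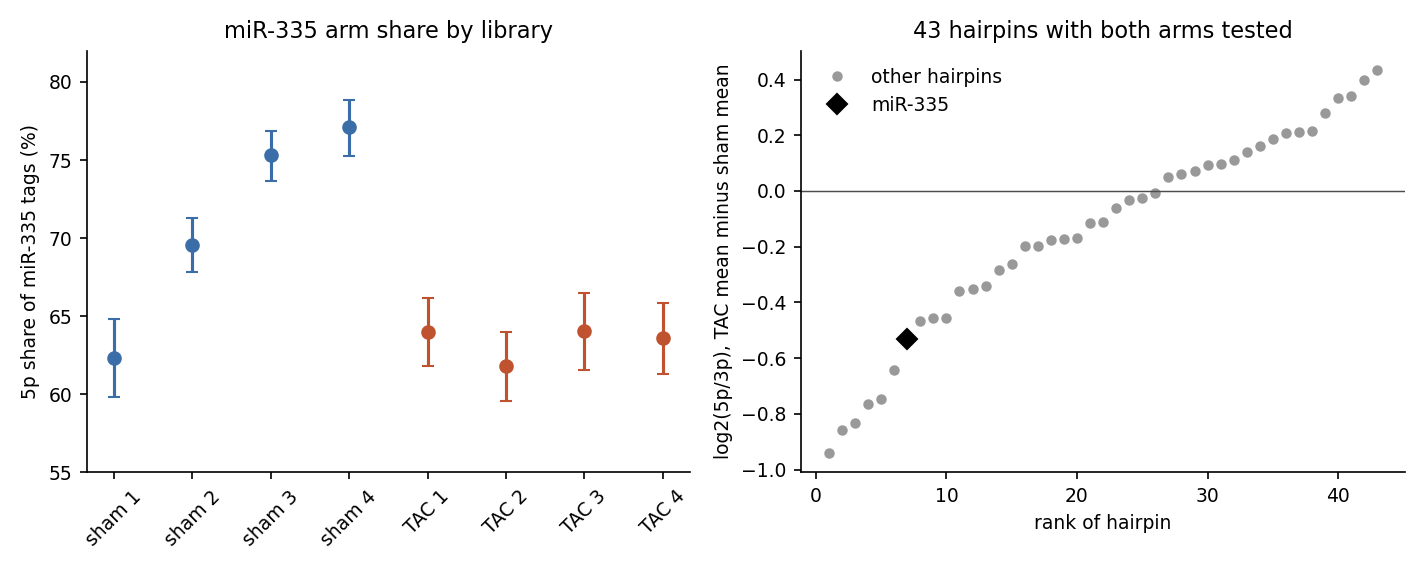
Left, share of miR-335 tags from the 5p arm (vertical axis in %, from 55) in each library, with exact 95% binomial intervals. Right, TAC-minus-sham difference of mean log2(5p/3p) for 43 hairpins in rank order, with miR-335 (diamond) at -0.53; the share in sham mouse 1, 62.3%, lies with the TAC libraries.

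The miRNAs most like each arm were looked for by Pearson correlation of log2(CPM by library total + 1) over the 8 libraries, among 221 other tested miRNAs. These values share the library and its total, both groups enter them, and the highest of many are named, so they are a description. miR-335-5p was most like miR-126a-3p (r = 0.93, Spearman rho = 0.76), an endothelial miRNA of the Egfl7 gene and a reference of the scaling above. It was followed by miR-24-2-5p (r = 0.92, rho = 0.90) and miR-30e-5p (r = 0.91, rho = 0.83), both with a higher rho. Without sham mouse 1 the order by r turned among these 3, to 0.943 for miR-30e-5p, 0.927 for miR-24-2-5p and 0.925 for miR-126a-3p. In both miR-335-5p and miR-126a-3p, sham mice 2 to 4 lay well above the other 5 libraries, and sham mouse 1 was the lowest sham mouse. miR-126a-3p had 25759 CPM in sham mouse 1 and 36421 to 50698 CPM in the other sham mice, and 20677 to 23630 CPM in TAC.

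Set against miR-126a-3p in the same library, miR-335-5p had 7.86, 8.16, 8.49 and 11.5 tags per 1000 miR-126a-3p tags in sham mice 1 to 4 and 9.68, 6.79, 6.35 and 7.36 in TAC mice 1 to 4. The groups overlapped on this measure, whose denominator was chosen for its likeness to this arm. miR-335-3p was most like miR-331-3p (r = 0.92, rho = 0.95), miR-497a-5p (r = 0.92, rho = 0.83) and miR-351-5p (r = 0.90, rho = 0.69). Without sham mouse 1 miR-351-5p came first of these at 0.97, followed by miR-497a-5p at 0.94 and miR-331-3p at 0.92. Its own partner arm correlated with it at r = 0.86. Sham mice 1 to 4 had 4.75, 3.57, 2.79 and 3.41 miR-335-3p tags per 1000 miR-126a-3p tags and TAC mice 1 to 4 had 5.44, 4.20, 3.56 and 4.22, and the groups overlapped.

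**Figure D4:**
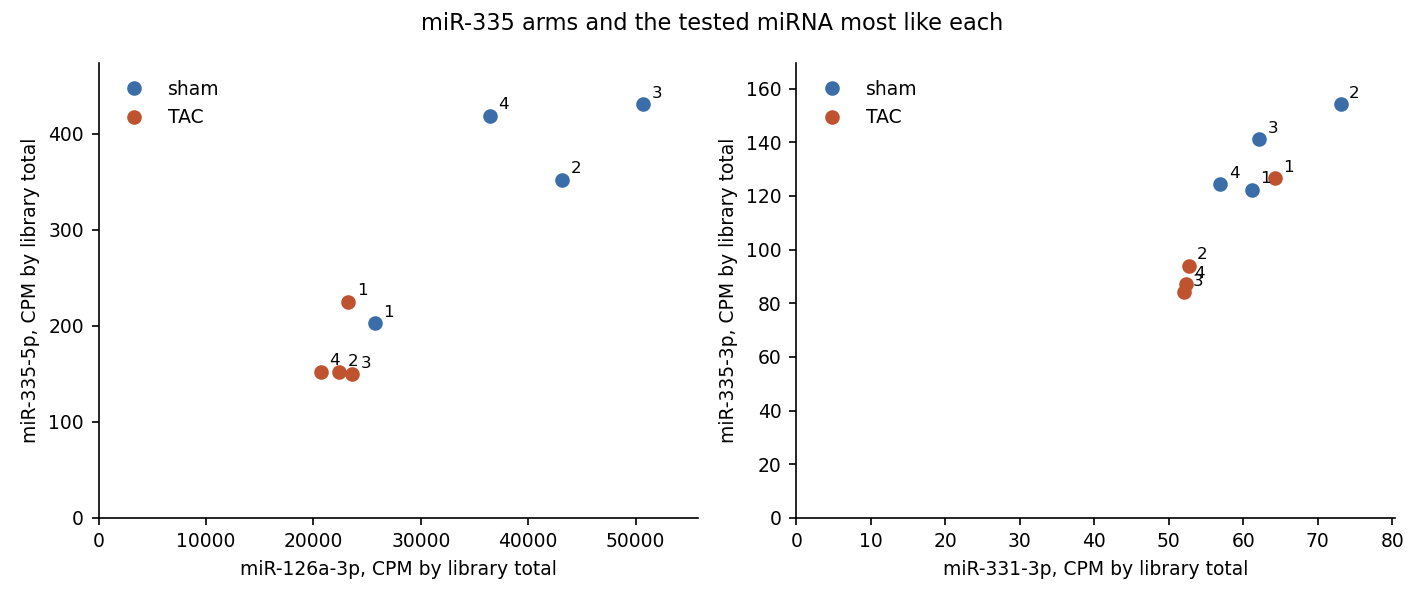
CPM by library total of miR-335-5p against miR-126a-3p (left) and of miR-335-3p against miR-331-3p (right); each point is a library, coloured by group and numbered by mouse. Sham mice 2 to 4 lie apart at the upper right of the left panel, at 352 to 430.6 CPM of miR-335-5p, and TAC mouse 1 lies with the sham mice in the right panel.

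Marker miRNAs of other cells differed between the libraries too, and not all in the direction of miR-335. By library total, the summed endothelial markers, the 2 arms of miR-126a, were 0.547 times as high in TAC as in sham. The groups did not overlap, and 27.4% of tested miRNAs taken singly also had TAC wholly below sham on this scale. With the reference scaling the log2 fold changes were 0.10 for miR-126a-3p, itself a reference, and -0.12 for miR-126a-5p. The 3 erythroid markers (miR-451a and both arms of miR-144) summed to 418 to 1503 CPM in sham and 43.8 to 550 CPM in TAC, and sham mouse 1 had the lowest sham sum in both lists. The 7 markers of fibroblasts and smooth muscle, such as miR-143-3p and miR-199a-3p, were at 43589 to 51440 CPM in sham and 38400 to 45641 CPM in TAC. Most of this was miR-143-3p, with means of 36035 CPM in sham and 33449 CPM in TAC. miR-145a-3p was nearly level at 1704 and 1728 CPM, and the other members had lower means in TAC. With the reference scaling only miR-199b-5p had a negative log2 fold change, -0.38, and miR-143-3p had 0.79. The 9 epithelial markers averaged 1.78 times as high in TAC, which rested on TAC mouse 4 at 1545 CPM: the other TAC mice had 252 to 360 CPM, with a mean of 318 CPM, below the sham mean of 351 CPM (274 to 447). The 4 markers of liver and pancreas were at 26.2 to 42.5 CPM in sham, at 34.4 to 40.8 CPM in TAC mice 1 to 3 and at 91.6 CPM in TAC mouse 4. No marker of any list was at 0 in all libraries. The part of these cells in the miR-335 values was not tested.

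The miRNAs of the Igf2 hairpin were near the floor. miR-483-3p had 5, 13, 5 and 11 tags in sham mice 1 to 4 and 3, 5, 9 and 5 in TAC mice 1 to 4. Its level was 1.81 ± 0.894 CPM (SD, n = 4) in sham against 0.824 ± 0.401 CPM (SD, n = 4) in TAC by library total, with overlapping groups. Summed over each group it had 34 tags in sham, or 1.80 CPM (95% Poisson interval 1.24 to 2.51), and 22 in TAC, or 0.819 CPM (0.513 to 1.24). On the reference-scaled values the means were 1.81 and 1.54, so the gap between the groups depended on the scale.

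miR-483-5p had 0, 3, 1 and 1 tags in sham mice 1 to 4 and 3, 0, 6 and 6 in TAC mice 1 to 4. With 3 counts as the limit that a count of 0 allows, its level could be up to 0.648 CPM in sham mouse 1 and 0.385 CPM in TAC mouse 2, and the highest level, in TAC mouse 3, was 0.946 CPM. Summed over each group it had 5 tags in sham, or 0.264 CPM (95% Poisson interval 0.0857 to 0.616), and 15 in TAC, or 0.558 CPM (0.312 to 0.921). These intervals cover counting error only. The library means were 0.252 ± 0.230 CPM in sham against 0.580 ± 0.422 CPM in TAC by library total (SD, n = 4 per group), a ratio of 2.30. On the reference-scaled values they were 0.252 and 1.08, a ratio of 4.28. The groups overlapped on both scales, and no test was run at these counts. In the hairpin as a whole the 3p arm held most tags, 56 of 76, the reverse of miR-335. The 5p arm took 5 of 39 tags in sham (12.8%, exact 95% interval 4.30% to 27.4%) and 15 of 37 in TAC (40.5%, 24.8% to 57.9%). TAC mouse 2, with 0 of 5, lay with the sham libraries, and these sums carry no replicate test.

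Other imprinted loci place these levels in context. The Dlk1-Dio3 locus, whose miRNA clusters are expressed from the maternal allele, had 64 measured arms summing to 929 to 1915 CPM in sham and 726 to 1319 CPM in TAC by library total. The 2 miR-335 arms alone summed to 325 to 572 CPM in sham and 234 to 352 CPM in TAC. They made up 27.9% ± 6.93 (SD, n = 4) in sham against 22.5% ± 7.04 (SD, n = 4) in TAC of all counts on the 96 measured miRNAs of imprinted loci, a difference smaller than the spread within the groups. The 25 names of the rodent cluster in an intron of Sfmbt2 summed to 32.4 to 63.8 CPM in sham and 24.0 to 38.8 CPM in TAC. Of these, 16 fall into 6 groups with identical counts in every library, such as miR-467a-5p and miR-467b-5p at 291 tags each and 5 names of miR-466 at 107 each, so they may share tags. With each such group counted once, 909 of 1719 tags remained, and the sums were 18.7 to 32.2 CPM in sham and 13.4 to 19.1 CPM in TAC. The miR-335 share was then 28.2% ± 7.07 in sham against 22.7% ± 7.08 in TAC (SD, n = 4 per group). miR-669c-5p followed with 128. From the Nespas transcript antisense to Gnas, miR-298-5p had 137 tags, miR-296-3p 49 and miR-296-5p 29. Of these 3 other loci, only Dlk1-Dio3 had members above the count minimum.

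Of the 64 Dlk1-Dio3 arms 10 were tested, and 1 was called higher and 0 lower with the reference scaling in edgeR, against 36.8% and 0.897% of all tested miRNAs. Their log2 fold changes ran from -0.81 to 0.78 with a median of 0.55, beside 0.61 over all tested miRNAs. miR-127-3p, the most abundant with 30030 tags, had 0.49 ± 0.26 (SE) with an edgeR adjusted p of 0.118. miR-411-5p had 0.69 (adjusted p = 0.107) and miR-541-5p 0.25 (adjusted p = 0.271). The called arm was miR-379-5p at 0.77 (adjusted p = 0.0480), which had 0.079 under TMM and -0.13 by library totals. Under TMM 0 of the 10 were called higher and 1 lower, miR-434-5p at -0.91 (adjusted p = 0.0263 from edgeR), named after its value was seen, against 1.35% and 4.48% of all tested miRNAs; with the reference scaling it had -0.21, close to the -0.15 of miR-335-5p.

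**Figure D5:**
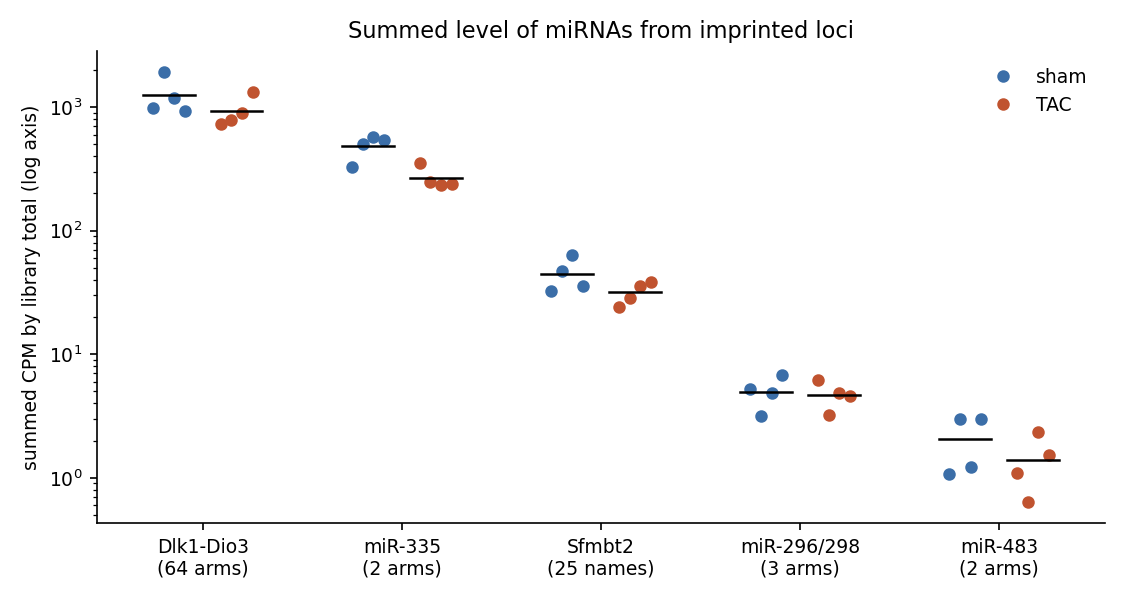
Summed CPM by library total (log axis) of miRNAs from imprinted loci in sham (blue) and TAC (orange) libraries, with a line at each group's mean. miR-335, at 234 to 572 CPM over all libraries, lies between the Dlk1-Dio3 list and the Sfmbt2 cluster (all names, repeats included), and miR-483 is the lowest.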

How the data were processed

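The labels give the group and number of each library, and by the study's methods each is from 1 mouse. The authors cleaned the small RNA reads and deposited whole-number tag counts per mature miRNA, without normalization. Their processing notes name mm10 and StringTie 1.3.1; the miRNA aligner, miRNA reference and treatment of tags that fit several miRNAs are not given in the sources used here. The members, lists and tests were chosen with earlier results of these data known.

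Counts were fitted in R 4.3.3 with edgeR 4.0.16 (quasi-likelihood F test, group as the only term, Benjamini-Hochberg over 223 miRNAs with a mean above 100 counts). Library sizes were miRNA totals, multiplied in TAC by 0.537. SE values were obtained by dividing a log2 fold change by the square root of its F statistic. DESeq2 1.42.0, TMM, other filters, other references, a replicate block and each library left out were alternatives. The fit was tested on simulated data. Arm ratios were compared by exact permutation over 70 arrangements in Python 3.11.15 with scipy 1.17.1. Named miRNAs were the members, the reference miRNAs, the 3 most correlated with each miR-335 arm, the 3 most abundant and every called arm of each imprinted list, all arms of miR-296 and miR-298, and any sharing a seed with a member. Depth was 4005668 to 7798943 tags per library, with a biological coefficient of variation of 0.255, so at the count minimum scatter between mice exceeds counting error. p-values measure the spread between these mice. With the reference scaling they take the factor of 0.537 as fixed, so the spread of the references between mice is left out. No 2 libraries were copies of each other. Sequences are from RefSeq (GRCm38.p6) and gene positions from GENCODE vM21.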

Additional observations from a re-analysis of the deposited data

Results flagged for a closer look

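In 3 of 14 sets of 4 libraries, 1 library stood apart from the others of its group by Dixon's gap-to-range ratio at its 95% critical value, which about 5% of such sets exceed by chance. All 3 are in TAC. For miR-335-5p the ratio was 0.97, with TAC mouse 1 at 225 CPM by library total and the other TAC mice at 150 to 152 CPM. For both arms of miR-335 summed it was 0.90, with TAC mouse 1 at 352 CPM and the others at 234 to 246 CPM. These are not separate signals, since the 5p arm holds most of the sum. Without TAC mouse 1 the reference-scaled log2 fold change of miR-335-5p was -0.31 in place of -0.15 and that of miR-335-3p 0.28 in place of 0.43. The same library had the lowest summed erythroid markers of all 8, 43.8 CPM, and the part of this in its miR-335 level was not tested. For miR-483-3p the ratio was 0.83, with TAC mouse 3 at 1.42 CPM and the others at 0.545 to 0.692 CPM. These levels stand for 9 tags against 3 to 5.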

How the results depend on the processing

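The log2 fold change of miR-335-5p was negative in all 20 alternatives, and passed an adjusted p of 0.05 in 4: library totals (-1.05), DESeq2 with its own size factors (-0.80, adjusted p = 0.0119), and, added after the data were seen, library totals (-1.24) and TMM (-1.002) without sham mouse 1. That of miR-335-3p was positive in 15 and turned negative in 5: TMM (-0.25), library totals (-0.47), DESeq2 with its own size factors (-0.21), and TMM (-0.27) and library totals (-0.51) without sham mouse 1. It stayed positive but missed 0.05 with 1 reference factor per library (log2 fold change 0.41, adjusted p = 0.130), miR-126a-3p alone (0.33, adjusted p = 0.127), DESeq2 on the reference scaling (0.43, adjusted p = 0.0520), no filter (0.43, adjusted p = 0.120), a mean above 10 counts (0.43, adjusted p = 0.0734) and the replicate block (0.42, adjusted p = 0.0891). With each library left out, the values ran from -0.31 to -0.017 for miR-335-5p, from 0.28 to 0.54 for miR-335-3p and from -0.73 to -0.39 for the log2 arm ratio, where 3 against 4 libraries allow no p below 0.0571.

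Of all miRNAs, 82 were called higher and 2 lower. This went to 3 and 10 with TMM (3 and 7 without sham mouse 1), 1 and 23 with library totals (1 and 22 without it), 5 and 9 with DESeq2's size factors, 127 higher with no filter on 695 miRNAs, and 1 lower with miR-19b-3p alone. With each library left out it ran from 59 to 106 higher and from 1 to 2 lower. The cause of these changes was not tested, apart from the scaling itself.

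The study's methods mention pairs of mice without saying which mice form a pair or what they share. Deviations of same-numbered libraries correlated at 0.17, -0.37, 0.31 and -0.22. Only sham mouse 3, TAC mouse 1 and TAC mouse 3 correlated best with their own number in the other group. The replicate block gave 76 higher and 3 lower, miR-335-5p -0.13 and the arm ratio -0.53 (exact sign-flip permutation test, p = 0.25, where 4 pairs allow no p below 0.125).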

Other observations

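Of the 43 hairpins with both arms tested, 4 had arm ratios that did not overlap between the groups, all with relatively fewer 5p tags in TAC, and they were named after these values were seen. miR-434, which lies antisense to the imprinted gene Rtl1 in the Dlk1-Dio3 locus, had a mean log2 ratio of 5p to 3p tags of 0.28 ± 0.39 (SD, n = 4) in sham against -0.55 ± 0.095 (SD, n = 4) in TAC. As in miR-335, its SD was smaller in TAC than in sham. miR-30e, whose 5p arm is among the miRNAs most like miR-335-5p, had 5.26 ± 0.21 in sham and 4.62 ± 0.26 in TAC, and miR-30a had 5.31 ± 0.18 and 4.54 ± 0.23. miR-199b had -3.58 ± 0.16 and -4.53 ± 0.43, but its 3p arm has the same mature sequence as that of miR-199a.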
